A study of Mus musculus with 15 samples.

Results

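The genes described here are 39 mouse genes of mitosis and chromosome segregation, listed by symbol and read in T helper cell cultures on expression arrays. All 39 were found among the 18194 genes that the arrays' annotation names, each through the probe set with the highest mean over the 15 arrays, and all 39 were among the 15498 genes tested. The study asked how T helper lineages raised by antibody stimulation compare with those raised by the antigen itself. The cells were naive CD4+ T cells of 3A9 mice, from spleen and lymph nodes. These mice have a T cell receptor transgene specific for HEL, the lysozyme of hen eggs, and transgenic cells were sorted with the antibody 1G12. In HA groups, wild type splenocytes irradiated with 30 Gy acted as antigen-presenting cells (APC) for HEL, which was given at 2 µg/ml in Th1 and Th17 and at 1 µg/ml in Th9 cultures. In PBAB groups, antibodies bound to the plate, against CD28 (10 µg/ml) and CD3 (1 µg/ml), took the place of APC and antigen. Under either stimulus, Th1 cultures received IL-12 (10 ng/ml) and anti-IL-4 (10 µg/ml), and Th9 cultures received IL-4 (10 ng/ml) and TGF-beta (1 ng/ml). Th17 cultures received TGF-beta (3 ng/ml), IL-6 (10 ng/ml) and IL-1alpha (5 ng/ml), with antibodies to IFN-gamma (20 µg/ml), IL-4 and IL-12 (10 µg/ml each). RNA was taken at day 4, with 2 arrays for each lineage and stimulus and 1 array per lineage labelled APC alone. Receptor transgenic cells of 1 specificity were used throughout, and the age of the mice is not given in the labels. The labels call the replicates biological but do not name the animals or cultures, so p-values here reflect only how far these samples spread.

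A dividing cell enters mitosis when the kinase CDK1 with a B-type cyclin is switched on, condenses its chromosomes, and attaches them through kinetochores to a spindle of microtubules. The spindle checkpoint holds back the anaphase-promoting complex until every kinetochore is attached, after which that complex marks cyclin B and securin for destruction, sister chromatids part and the cell divides. Transcripts of most of these proteins are made late in the cell cycle, and activated T cells are among the fastest dividing cells of the adult body.

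Late cell cycle genes are known for a promoter with CCAAT boxes, bound by NF-Y, and a cell cycle genes homology region (CHR) near the start, bound by the DREAM and B-Myb complexes. The stretch of 150 bases before the start is shown for 5 genes whose transcripts are described in the results, from RefSeq promoters on GRCm38.p6. They stand at chr10:69352913-69353062 on the minus strand (Cdk1), chr4:118437344-118437493 on the minus strand (Cdc20), chr19:37376232-37376381 on the plus strand (Kif11), chr11:99024190-99024339 on the minus strand (Top2a) and chr19:6084947-6085096 on the plus strand (Cdca5). Capitals mark CCAAT as well as the CHR letters TTTGAA or TTCGAA, on either strand.
Cdk1: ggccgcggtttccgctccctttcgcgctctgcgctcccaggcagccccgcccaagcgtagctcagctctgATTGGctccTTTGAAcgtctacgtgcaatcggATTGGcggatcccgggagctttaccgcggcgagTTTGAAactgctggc
Cdc20: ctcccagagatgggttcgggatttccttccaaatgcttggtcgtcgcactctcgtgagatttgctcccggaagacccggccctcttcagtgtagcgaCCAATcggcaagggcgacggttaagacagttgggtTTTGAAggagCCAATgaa
Kif11: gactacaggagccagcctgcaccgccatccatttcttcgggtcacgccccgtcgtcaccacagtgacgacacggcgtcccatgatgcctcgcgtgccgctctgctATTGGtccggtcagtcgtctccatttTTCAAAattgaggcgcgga
Top2a: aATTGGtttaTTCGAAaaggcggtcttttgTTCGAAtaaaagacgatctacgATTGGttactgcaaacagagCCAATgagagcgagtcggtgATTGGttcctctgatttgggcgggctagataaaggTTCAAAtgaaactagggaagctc
Cdca5: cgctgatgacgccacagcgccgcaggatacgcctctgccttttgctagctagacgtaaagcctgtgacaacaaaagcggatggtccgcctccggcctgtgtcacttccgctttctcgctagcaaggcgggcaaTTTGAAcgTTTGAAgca
The stretches of Cdk1, Cdc20, Kif11 and Top2a held both kinds of letters, and that of Cdca5 held a tandem pair of TTTGAA and no CCAAT.

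A RefSeq promoter from 250 bases before to 50 bases after the start was matched for 35 of the 39 genes, 37 promoters in all. CCAAT, on either strand, was in 27 of these 37 promoters (73%), against 37.4% of all 32851 promoters of that length and 61.1% of 36 promoters of DNA replication genes. The CHR letters, TTTGAA or TTCGAA on either strand, were in 30 of the 37 (81.1%), against 19.2% of all promoters and 16.7% of those of the replication genes. Both were in 26 of the 37 (70.3%), against 7.52% of all promoters and 13.9% of the replication promoters. Within 50 bases of the start, a window chosen after the positions were seen, the CHR letters were in 78.4% of the mitosis promoters, 5.31% of all promoters and 5.56% of the replication promoters. The mitosis and the replication promoters stood closer to each other in their CCAAT share than in their CHR share. TTTGAA made up nearly all of these matches, with 29 promoters, and TTCGAA was in 3. Neither motif was found in the window of Melk, Mad2l1, Birc5, Nuf2, Nusap1 or Ncaph. These matches describe letters in a window and not sites of binding.

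**Figure D1:**
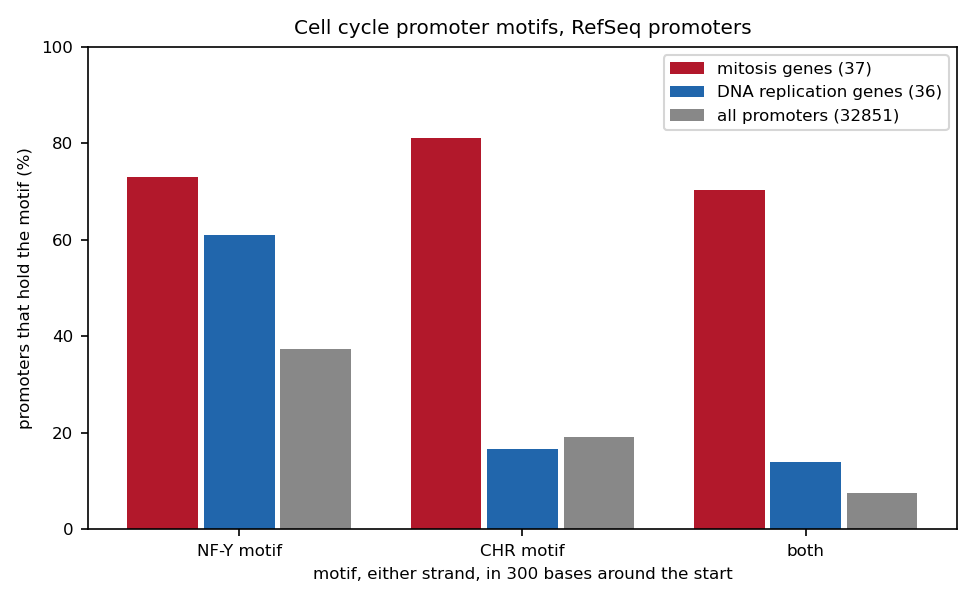
Share of promoters (percent, vertical axis) that hold the NF-Y motif, the CHR motif or both, in windows of 300 bases, for 37 promoters of the mitosis genes, 36 of DNA replication genes and all 32851 RefSeq promoters. The mitosis genes stand at 81.1% for the CHR motif, against 16.7% of the replication genes and 19.2% of all promoters.

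Over all 45101 probe sets, replicate arrays correlated at 0.986 to 0.989 and activated arrays of different groups at 0.953 to 0.988. APC alone arrays correlated with activated arrays at 0.614 to 0.727. Signals at the 3' end of the actin control exceeded those at its 5' end by 0.05 to 0.11 on the log2 scale in HA, by 0.12 to 0.28 in PBAB and by 0.74 to 0.99 in APC alone, a measure of RNA integrity and labelling that thus moved with the groups. The 13 T cell markers had a mean level of 10.23 to 10.87 in HA and 10.29 to 10.85 in PBAB arrays, and all 13 were above the filter there. In the APC alone arrays their mean level was 6.42 to 7.56, with 12 or 13 above the filter, while 20 of 20 macrophage and monocyte markers were above it at a mean level of 9.72 to 9.95. The labels give CD4+ T cells as the source of these 3 arrays as well, and do not say what else they held.

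All levels below are log2 values of 1 probe set per gene, and a difference of 1 between groups is a doubling. Levels of different genes are not compared, because probe sets differ in their response. A difference is called when its adjusted p in limma, with Benjamini-Hochberg adjustment over all tested genes, is under 0.05. Shares of all genes called belong to the fit reported. For fits with the replicate number as a block or without single arrays, these shares were not worked out. In bulk RNA, fewer dividing cells and less RNA of these genes per cell cannot be told apart.

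Against the APC alone arrays, the mitosis genes were almost all higher in activated cultures. In HA, 38 genes were called higher and 1 lower, with a median difference of 3.65, while 49.5% of all tested genes were called higher and 41.2% lower at a median of 0.36. In PBAB, 37 were called higher and 2 lower (48.7% and 41.1% of all genes), with a median of 2.81. Every activated array had all 39 genes above the filter on low values (5.07), whereas 16 genes were below it in at least 1 APC alone array and 5 in all 3. For these genes the difference from APC alone has a direction but no exact size. With APC alone levels under the filter set to the filter, the median difference was 3.57 in HA and 2.67 in PBAB. These comparisons share their APC alone arrays and rest on 1 such array per lineage, whose marker levels and actin ratio also differ, and the part of those in the result was not tested.

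For the 2 exceptions, the probe sets gave different results against APC alone. Foxm1, the transcription factor that drives late cell cycle genes, averaged 8.79 in APC alone, 8.0 in HA and 7.12 in PBAB with the probe set used. A second probe set was higher in HA than in APC alone, by 2.23 ± 0.24, and another, of the x_at kind, whose probes may match other transcripts, stood at 7.85 in APC alone, 7.87 in HA and 6.87 in PBAB. Kif11, the motor that pushes spindle poles apart, differed between HA and APC alone by 0.37 with the probe set used. Its other probe sets averaged 8.67 and 8.74 in HA against 4.23 and 4.63 in APC alone, where both means lay below the filter, so they give a direction and no exact size. Between PBAB and HA these probe sets shared a direction, at -0.88, -1.17 and -1.0 for Foxm1 and at -1.08, -1.36 and -1.20 for Kif11.

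Between the stimuli, transcripts of the mitosis genes were lower in PBAB than in HA cultures. Averaged over the 3 lineages, 36 of 39 genes were called lower and none higher, against 17.3% of all tested genes called lower and 13.2% called higher. The median difference was -0.88, and that over all genes was 0.02. The differences ran from -2.11 for Birc5 to 0.18 for Cenpa. Matched by replicate number, 31 genes were lower in PBAB in all 6 pairs of arrays and 6 genes in 5 of 6, against 16.9% and 8.59% of all genes. In 17 genes every PBAB array lay below every HA array, which held for 6.48% of all genes. The 3 genes without a call were Cenpa, Anln and Ect2, and with the replicate number as a block Ect2 was called as well (-0.53, adjusted p = 0.0275 in limma, within a range of 0.0026 to 0.536 over its alternatives). Leaving out single arrays gave 29 to 37 calls. Over 25 alternative fits, the call was lost in 11 for Ube2c, 8 for Kif4, 7 each for Aurkb and Cdca8, 6 each for Cdc20, Hmmr and Spag5 and 5 for Bub1, and in at most 2 for each other called gene.

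**Figure D2:**
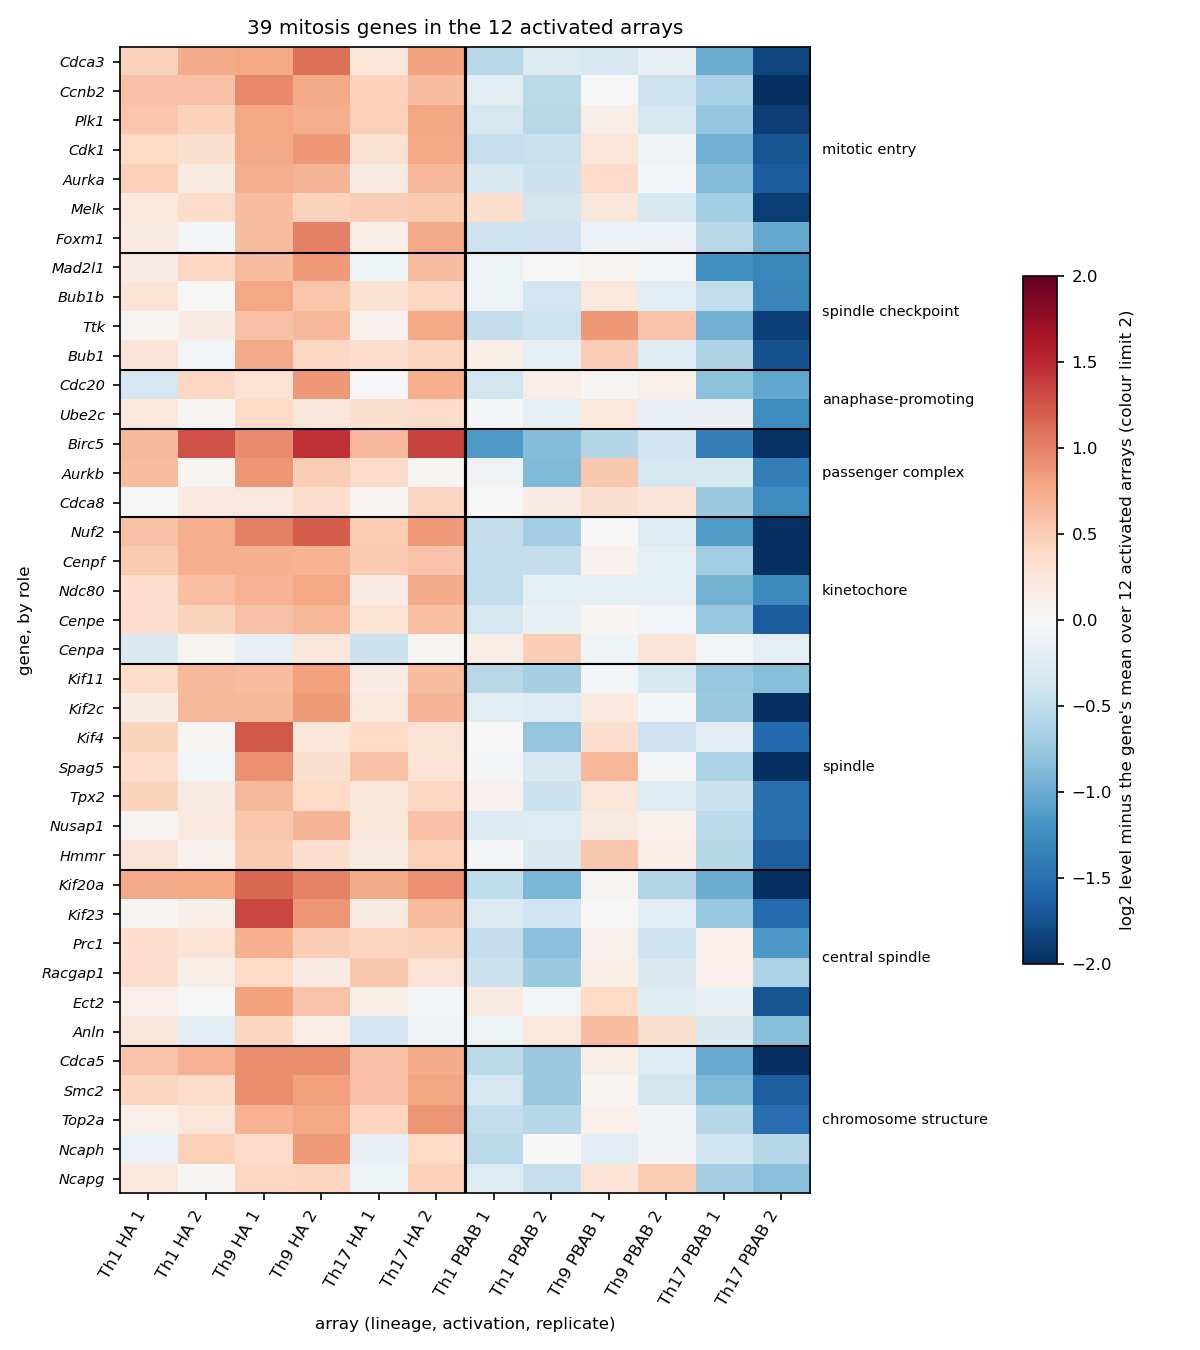
Level of each of the 39 genes in the 12 activated arrays (columns) as the log2 deviation from that gene's mean over the 12, with genes in rows grouped by role and the colour limited at 2. The HA arrays at the left are mostly red (higher) and 5 of the 6 PBAB arrays at the right mostly blue (lower), deepest in the second Th17 PBAB array, while the first Th9 PBAB array has 31 of 39 genes above their mean.

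Of the regulators of mitotic entry, all 7 were called lower in the average, by 0.88 to 1.38. Cdca3, which helps to degrade the mitotic inhibitor WEE1, was at 11.01 and 11.28 in Th1 HA, 11.32 and 11.64 in Th9 HA and 10.79 and 11.35 in Th17 HA. In PBAB it was at 9.99 and 10.26 in Th1, 10.23 and 10.37 in Th9 and 9.55 and 8.70 in Th17, and in APC alone at 4.71, 6.69 and 6.95. No PBAB array reached the lowest HA array. The averaged difference of -1.38 ± 0.16 (SE; adjusted p = 0.000136, limma) is a 2.60-fold lower level in PBAB. Cdk1, the mitotic kinase itself, was at 10.75 and 10.67 in Th1 HA, 11.10 and 11.21 in Th9 HA and 10.64 and 11.11 in Th17 HA. It was at 9.88 and 9.90 in Th1 PBAB, 10.58 and 10.27 in Th9 PBAB and 9.39 and 8.61 in Th17 PBAB, and at 4.97, 6.16 and 6.41 in APC alone. The highest PBAB array, of Th9, lay just under the lowest HA array, of Th17. Its averaged difference was -1.14 ± 0.14 (adjusted p = 0.000195), close to those of its partner cyclin Ccnb2 (-1.32) and of the mitotic kinase Plk1 (-1.26).

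Foxm1 had the smallest averaged difference of this role, at -0.88 ± 0.14 (adjusted p = 0.000749). It was at 7.72 and 7.52 in Th1 HA, 8.19 and 8.56 in Th9 HA and 7.67 and 8.32 in Th17 HA, against 7.14 and 7.15, 7.44 and 7.44, and 7.0 and 6.53 in the same lineages under PBAB. In APC alone it was at 8.70, 8.91 and 8.76. All PBAB arrays lay below all HA arrays, and both lay below APC alone with this probe set. The kinases Aurka, which matures the spindle poles, and Melk differed by -0.97 and -0.88.

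The 4 spindle checkpoint genes were all called lower in the average, by 0.72 to 0.87. Mad2l1, the protein that binds CDC20 until chromosomes are attached, was at 10.93 and 11.17 in Th1 HA, 11.40 and 11.60 in Th9 HA and 10.67 and 11.38 in Th17 HA. Under PBAB it was at 10.66 and 10.77 in Th1, 10.82 and 10.70 in Th9 and 9.55 and 9.46 in Th17, and in APC alone at 7.82, 7.61 and 7.54. The groups did not overlap within any lineage, and the Th17 PBAB arrays stood lowest. The averaged difference was -0.87 ± 0.13 (adjusted p = 0.000496). Bub1, the checkpoint kinase at the kinetochore, had the smallest difference, -0.72 ± 0.20 (adjusted p = 0.0209). Its HA arrays were at 9.77 and 9.46 in Th1, 10.28 and 9.92 in Th9 and 9.86 and 9.95 in Th17. Its PBAB arrays were at 9.65 and 9.33, 10.01 and 9.25, and 8.92 and 7.78, and its APC alone arrays at 5.07, 5.20 and 5.46. HA and PBAB overlapped in Th1 and in Th9 and not in Th17.

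Ttk, the kinase that starts checkpoint signalling, was at 8.46 and 8.61 in Th1 HA, 9.03 and 9.10 in Th9 HA and 8.53 and 9.22 in Th17 HA. Under PBAB it was at 7.96 and 8.04 in Th1, 9.31 and 9.01 in Th9 and 7.49 and 6.58 in Th17, and in APC alone at 6.21, 5.69 and 6.39. The PBAB arrays lay below the HA arrays in Th1 and Th17, and in Th9 they surrounded them. Its averaged difference was -0.76 ± 0.17 (adjusted p = 0.00603), with -0.54 in Th1, 0.10 in Th9 and -1.84 in Th17. A dimmer probe set of Ttk differed the other way, by 0.18 ± 0.14.

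Both genes that serve the anaphase-promoting complex were called lower in the average. Cdc20, its activator and the target of the checkpoint, was at 11.09 and 11.84 in Th1 HA, 11.73 and 12.30 in Th9 HA and 11.42 and 12.16 in Th17 HA. It was at 11.06 and 11.57 in Th1 PBAB, 11.45 and 11.54 in Th9 PBAB and 10.61 and 10.40 in Th17 PBAB, and at 9.83, 9.88 and 9.29 in APC alone. The stimuli overlapped in Th1 and stood apart in Th9 and Th17. Its difference was -0.65 ± 0.18 (adjusted p = 0.0207), read with a probe set of the x_at kind. Ube2c, the enzyme that hands ubiquitin to the complex, was at 11.94 and 11.74, 12.12 and 11.96, and 12.05 and 12.11 in the HA arrays of Th1, Th9 and Th17. It was at 11.68 and 11.54, 11.94 and 11.58, and 11.58 and 10.47 in their PBAB arrays, and at 6.23, 7.64 and 7.70 in APC alone. The gap between stimuli was narrow in Th1 and Th9, and 1 Th17 PBAB array stood lowest. Its difference of -0.52 ± 0.17 had an adjusted p of 0.0399 in limma.

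The chromosomal passenger complex corrects faulty attachments and then guides cytokinesis. Birc5, the survivin subunit, had the largest difference of all 39 genes. It was at 11.23 and 11.85 in Th1 HA, 11.52 and 12.04 in Th9 HA and 11.22 and 11.94 in Th17 HA. It was at 9.45 and 9.71 in Th1 PBAB, 9.99 and 10.18 in Th9 PBAB and 9.21 and 8.61 in Th17 PBAB, and at 4.44, 5.32 and 6.32 in APC alone. More than 1 unit separated the highest PBAB array from the lowest HA array. The averaged difference of -2.11 ± 0.18 (adjusted p = 1.87e-05) is a 4.31-fold lower level in PBAB. Birc5 was called in each lineage, at -1.96 in Th1, -1.70 in Th9 and -2.67 in Th17, each ± 0.31.

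The other subunits of that complex differed less. Aurkb, its kinase, differed by -0.82 ± 0.24 (adjusted p = 0.0242). Cdca8, the borealin subunit, was at 10.75 and 10.94 in Th1 HA, 10.94 and 11.09 in Th9 HA and 10.78 and 11.17 in Th17 HA. It was at 10.74 and 10.91 in Th1 PBAB, 11.06 and 11.00 in Th9 PBAB and 10.00 and 9.48 in Th17 PBAB, and at 7.36, 7.26 and 7.49 in APC alone. The Th1 and Th9 arrays of both stimuli lay within one band, and the 2 Th17 PBAB arrays lay below all other activated arrays. Its averaged difference of -0.41 ± 0.12 (adjusted p = 0.0233) was made up of -1.23 ± 0.21 in Th17, beside -0.02 in Th1 and 0.02 in Th9. Other probe sets of Cdca8 averaged -0.75 ± 0.14 and -0.44 ± 0.14, and their values by lineage are not given here.

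Of the centromere and kinetochore genes, 4 of 5 were called lower. Nuf2, a subunit of the NDC80 complex that grips microtubules, was at 9.07 and 9.20 in Th1 HA, 9.49 and 9.68 in Th9 HA and 8.98 and 9.33 in Th17 HA. It was at 7.99 and 7.80, 8.49 and 8.22, and 7.36 and 6.11 in the PBAB arrays of these lineages, and at 4.15, 4.71 and 5.19 in APC alone. All PBAB arrays lay below all HA arrays. The difference was -1.63 ± 0.19 (adjusted p = 0.000112), a 3.10-fold lower level. Ndc80, its partner in the complex, differed by -1.11, the kinetochore protein Cenpf by -1.26 and the kinetochore motor Cenpe by -0.97.

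Cenpa, the histone H3 variant that marks centromeres, was the only member with a positive averaged difference, and it was not called. It was at 10.93 and 11.28 in Th1 HA, 11.07 and 11.45 in Th9 HA and 10.79 and 11.29 in Th17 HA. It was at 11.35 and 11.71 in Th1 PBAB, 11.15 and 11.49 in Th9 PBAB and 11.17 and 11.02 in Th17 PBAB, and at 4.93, 6.64 and 7.32 in APC alone. The stimuli overlapped in Th9 and Th17, and in Th1 both PBAB arrays lay above both HA arrays. Its difference was 0.18 ± 0.14 (adjusted p = 0.390), and it was lower in PBAB in 1 of 6 pairs. A second probe set differed by 0.43 ± 0.17 (unadjusted p = 0.0278), and the third was above the filter in no array.

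All 7 genes of the spindle and its motors were called lower, by 0.62 to 1.08. Kif11 was at 8.18 and 8.47 in Th1 HA, 8.44 and 8.64 in Th9 HA and 7.99 and 8.44 in Th17 HA. It was at 7.27 and 7.16 in Th1 PBAB, 7.77 and 7.48 in Th9 PBAB and 7.06 and 6.97 in Th17 PBAB, with APC alone at 8.03, 7.99 and 7.95. All PBAB arrays lay below all HA arrays and below the APC alone arrays. The difference was -1.08 ± 0.11 (adjusted p = 6.07e-05), and its values in Th1, Th9 and Th17, -1.11, -0.91 and -1.20, were close to each other. Hmmr, which holds spindle microtubules at the poles, had the smallest difference of this role. It was at 9.62 and 9.44, 9.88 and 9.69, and 9.53 and 9.84 in the HA arrays of Th1, Th9 and Th17, and at 8.09, 7.43 and 7.44 in APC alone. Under PBAB it was at 9.34 and 9.07, 9.90 and 9.49, and 8.78 and 7.70. The stimuli overlapped in Th9, stood slightly apart in Th1 and far apart in Th17, and the averaged difference was -0.62 ± 0.18 (adjusted p = 0.0216).

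Of the 6 genes of the central spindle and cytokinesis, 4 were called lower. Kif20a, the motor that brings the passenger complex to the central spindle, was at 9.30 and 9.32 in Th1 HA, 9.69 and 9.53 in Th9 HA and 9.30 and 9.46 in Th17 HA. It was at 8.04 and 7.63 in Th1 PBAB, 8.60 and 7.96 in Th9 PBAB and 7.55 and 6.12 in Th17 PBAB, and at 4.82, 5.50 and 4.20 in APC alone. The HA arrays lay close together, and every PBAB array lay below them. The difference was -1.78 ± 0.22 (adjusted p = 0.00017), a 3.44-fold lower level, and it was called in each lineage. Kif23, Prc1 and Racgap1, which build the central spindle, differed by -1.06, -0.90 and -0.62.

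Anln and Ect2 act at the contractile ring, and neither was called. Anln, the scaffold of the ring, was at 8.44 and 8.0 in Th1 HA, 8.66 and 8.38 in Th9 HA and 7.83 and 8.12 in Th17 HA. It was at 8.12 and 8.44 in Th1 PBAB, 8.84 and 8.55 in Th9 PBAB and 7.94 and 7.37 in Th17 PBAB, and at 6.61, 5.89 and 6.68 in APC alone. The stimuli overlapped in every lineage, and the difference was -0.03 ± 0.14 (adjusted p = 0.913). Ect2, which switches on RhoA at the ring, was at 7.60 and 7.49, 8.30 and 8.06, and 7.61 and 7.46 in HA. Under PBAB it was at 7.67 and 7.43, 7.88 and 7.24, and 7.34 and 5.76, the last being the second Th17 array, which stood far below the rest. In APC alone it was at 4.73, 5.03 and 4.90. Its difference was -0.53 ± 0.23 (adjusted p = 0.122).

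The 5 genes of chromosome structure were all called lower. Cdca5, or sororin, which protects sister chromatid cohesion, was at 10.21 and 10.34 in Th1 HA, 10.57 and 10.57 in Th9 HA and 10.22 and 10.38 in Th17 HA. It was at 9.10 and 8.89 in Th1 PBAB, 9.77 and 9.38 in Th9 PBAB and 8.64 and 7.63 in Th17 PBAB, and at 4.14, 4.07 and 4.37 in APC alone. All PBAB arrays lay below all HA arrays, with Th9 the highest under both stimuli. The difference was -1.48 ± 0.16 (adjusted p = 7.59e-05), a 2.79-fold lower level. Ncapg, a condensin subunit, was at 8.83 and 8.65, 9.03 and 9.06, and 8.53 and 9.10 in the HA arrays of Th1, Th9 and Th17, and at 8.36 and 8.17, 8.90 and 9.13, and 7.96 and 7.79 in their PBAB arrays. In APC alone it was at 3.39, 4.47 and 4.62. The stimuli overlapped in Th9 and stood apart in Th1 and Th17. Its difference was -0.48 ± 0.12 (adjusted p = 0.00939), beside -1.31 for the condensin core Smc2, and -0.60 for the condensin subunit Ncaph. Top2a, the enzyme that untangles DNA, was at 11.46 and 11.60, 12.05 and 12.14, and 11.79 and 12.25 in the HA arrays of Th1, Th9 and Th17. Under PBAB it was at 10.87 and 10.80, 11.46 and 11.30, and 10.80 and 9.83, and in APC alone at 6.61, 7.80 and 8.66. The stimuli stood apart in each lineage, and the difference was -1.04.

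**Figure D3:**
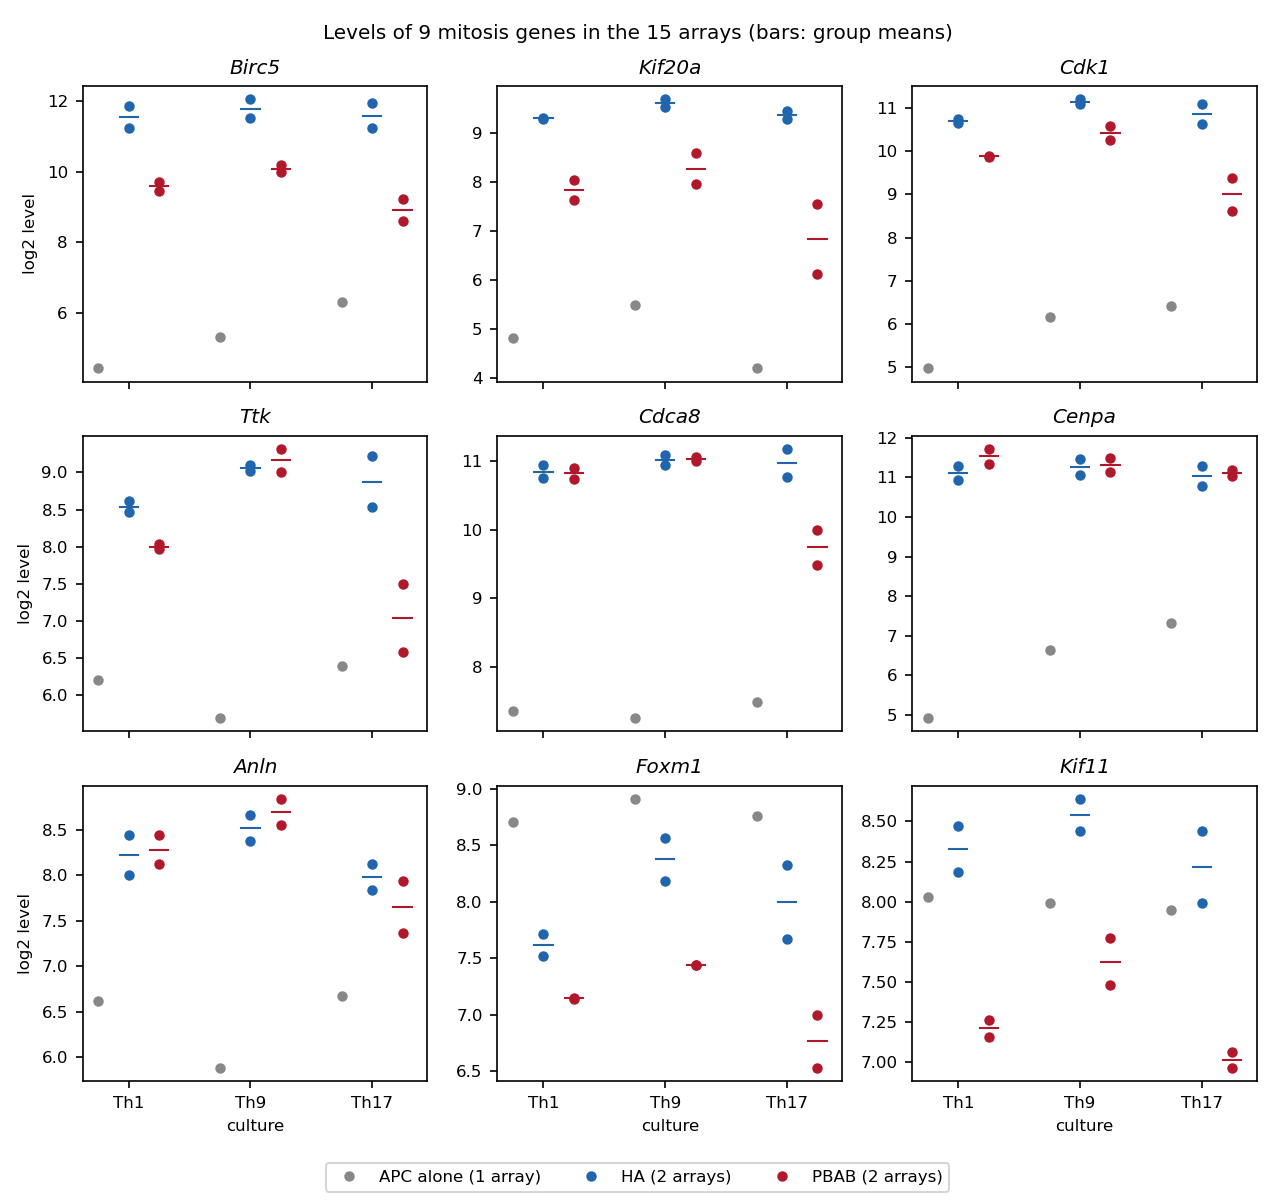
Log2 levels of 9 mitosis genes in the 15 arrays, by culture, with grey points for APC alone (1 array), blue for HA (2 arrays) and red for PBAB (2 arrays), and short bars at the means of 2 arrays. Birc5, Kif20a and Cdk1 have PBAB below HA in every culture, Cdca8 has it in Th17 and not in Th1 or Th9, Cenpa has PBAB above HA in Th1, and Anln overlaps in every culture.

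Several genes had more than 1 probe set, which allows a reading apart from the one used. For 27 genes there were 50 further probe sets, of which 44 were lower in PBAB on average and 6 higher. At an unadjusted p under 0.05, 32 were lower and 1 higher, the latter being that of Cenpa. Of the 15498 tested genes, with 1 probe set each, 3298 were lower and 2689 higher at that cut. The share over all probe sets was not worked out. Besides Cenpa and Ttk, the directions differed in Cdca3, Foxm1 and Top2a, through probe sets near 0 (0.02 and 0.04, 0.02, and 0.05), of which those at 0.02 and 0.05 were above the filter in no array. Sizes varied too, as in Cenpf (-1.26 with the probe set used, -0.06 and -0.25 with others) and Tpx2 (-0.76, against -1.37, -0.01 and -0.23).

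Within the lineages, the difference between stimuli was called for fewer genes. In Th1 cultures 9 genes were called lower and none higher (9.40% of all tested genes were called lower and 5.22% higher), with a median of -0.63. In Th9 cultures 11 were called lower and none higher (6.32% and 7.39% of all genes), with a median of -0.67. In Th17 cultures 31 were called lower and none higher (10.4% and 6.66%), with a median of -1.55. With the replicate number as a block these counts were 16, 19 and 37. The shares of all genes called with the block were not worked out. Birc5, Cdca3, Cdca5, Kif11, Kif20a, Ndc80, Nuf2 and Smc2 were called in all 3 lineages, and 8 genes were called in none of them. The shares of all genes called in all 3 lineages or in none were not worked out.

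The counts within lineages moved with single arrays. Without either HA array or either PBAB array of Th1, 2 to 4 genes were called there, and without any of the 4 activated Th9 arrays, 1 to 4 in Th9. Without Th17 PBAB 1 or Th17 PBAB 2, 16 genes were called in Th1 and 17 in Th9. In Th17, 20 were called without Th17 HA 2. Both PBAB arrays lay below both HA arrays for 30 genes in Th1, 29 in Th9 and 37 in Th17, against 26.8%, 22.0% and 28.5% of all genes. Averaged over Th1 and Th9 alone, a choice made after the values were seen, 21 genes were called lower (13.5% of all genes), at a median of -0.64.

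**Figure D4:**
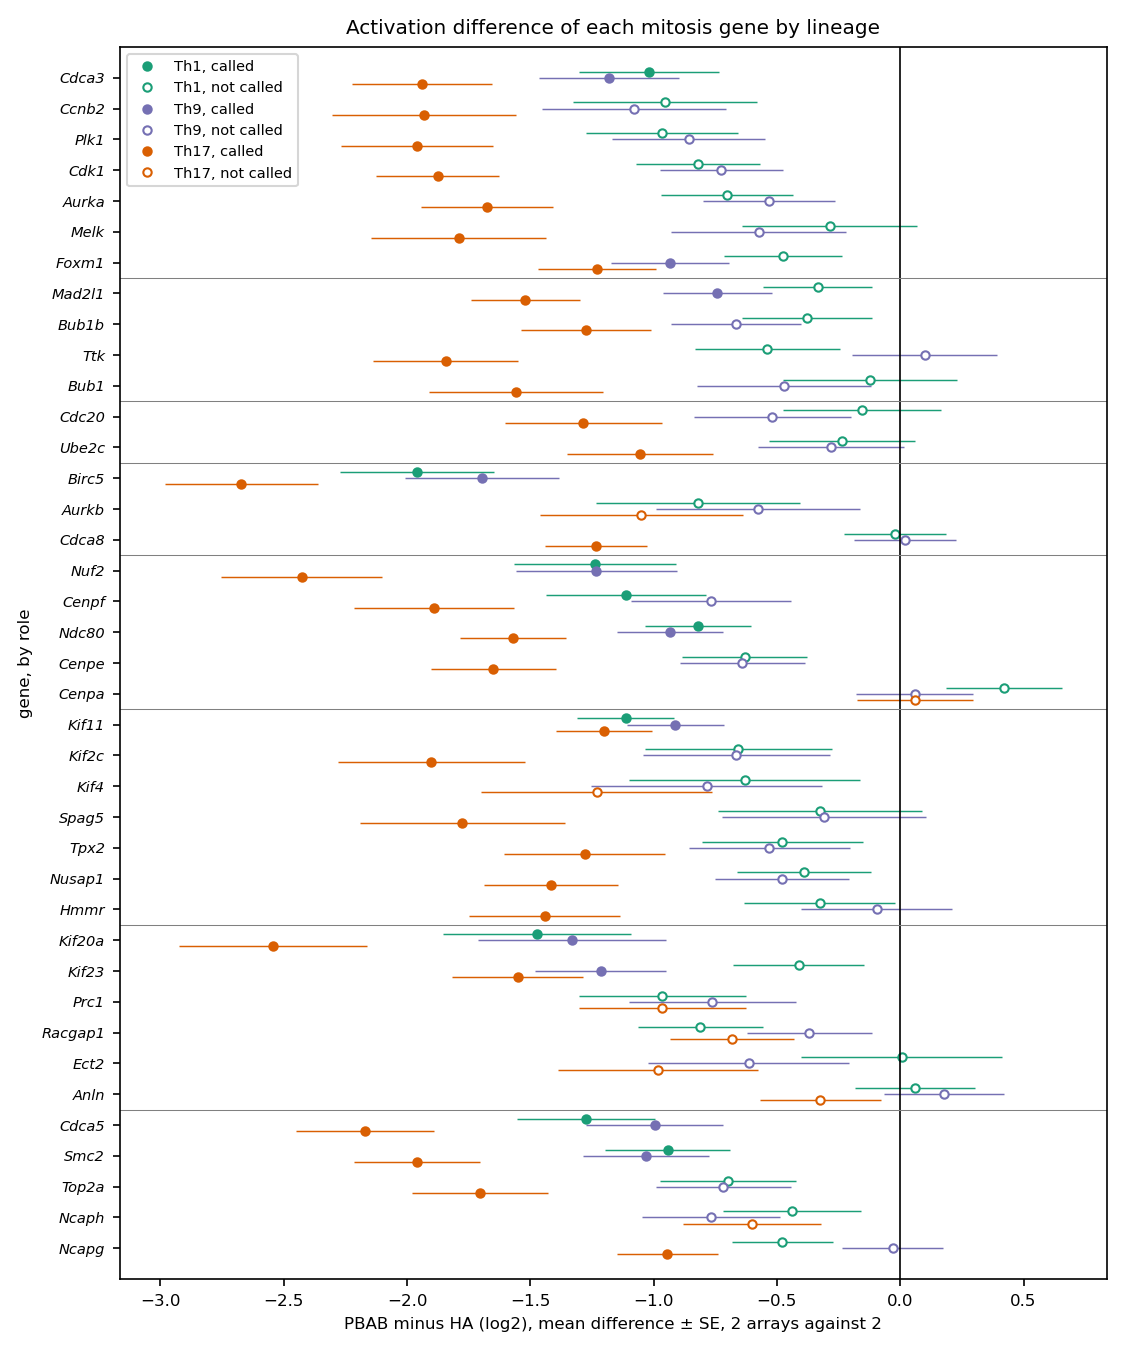
PBAB minus HA (log2, horizontal axis) with its SE for each of the 39 genes in Th1, Th9 and Th17 cultures (2 arrays against 2), with filled points where the difference was called. Most points lie left of 0, and the Th17 difference is the most negative for 35 of 39 genes. The share of all genes with that order was not worked out.

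The Th17 difference was the most negative of the 3 lineages for 35 of 39 genes. The share of all genes with that order was not worked out, and the 39 genes, read from the same arrays, do not count as replicates. Tests between lineages reached few of the 39 genes. The F test of the interaction between stimulus and lineage called 0 genes in limma, against 4.19% of all genes. At an unadjusted p under 0.05 there were 17 of the 39, against 17.4% of all genes. The smallest p values belonged to Cdca8 (adjusted p = 0.0503) and Ttk (adjusted p = 0.055). With the replicate block 7 genes were called, namely Bub1, Cdca8, Hmmr, Mad2l1, Melk, Spag5 and Ttk. The share of all genes called in that fit was not worked out. Without Th17 PBAB 1 there were 13 calls, and without Th17 HA 1 there were 2.

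By pairs of lineages, the difference between stimuli in Th17 lay below that in Th1 by a median of 0.98. In limma 0 genes were called (3.53% of all genes), and 23 had an unadjusted p under 0.05 (15.9% of all genes). With the block 7 were called, without Th17 PBAB 1 there were 17, and without Th17 HA 1 there were 2. Against Th9 the Th17 difference lay lower by a median of 0.91, and Ttk alone was called, at -1.94 ± 0.42 (adjusted p = 0.0485 in limma). Of all genes, 1.10% were called lower. At an unadjusted p under 0.05 there were 19 genes, all lower, beside 14.1% of all genes in either direction. With the block 4 genes were called, and without Th17 PBAB 1 there were 5. The call of Ttk was lost when any 1 array of Th1, any activated array of Th9, Th17 HA 2 or Th17 PBAB 2 was left out, APC alone arrays excepted. Between Th9 and Th1, 0 genes were called in limma and 0 had an unadjusted p under 0.05 (1.37% and 11.1% of all genes). The comparisons with Th9, and the F test, also carry the lower HEL dose of the Th9 HA cultures, which cannot be told apart from lineage.

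The replicates of Th17 PBAB stood apart from each other in these genes. The first array was above the second for 39 of 39 genes, by a median of 0.91, while over all genes the median was -0.01 and the median absolute difference 0.20. For the 36 DNA replication genes the first array was above for 32, by a median of 0.40. In the other 5 activated groups the median difference between replicates of the mitosis genes ran from -0.32 to 0.30. Without Th17 PBAB 2 the Th17 difference between stimuli had a median of -1.16, and without Th17 PBAB 1 of -1.94, beside -1.55 with both.

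Across the 9 groups, the median level of the 39 genes was 9.60 in Th1 HA, 9.93 in Th9 HA and 9.71 in Th17 HA. It was 9.0 in Th1 PBAB, 9.39 in Th9 PBAB and 8.28 in Th17 PBAB, and 5.93, 6.29 and 6.40 in the APC alone arrays of Th1, Th9 and Th17. The highest group mean was that of Th9 HA for 32 genes, and the lowest among activated groups was that of Th17 PBAB for 36. The shares of all genes with these extremes were not worked out. The span between the highest and lowest activated group ran from 0.49 for Cenpa to 2.87 for Birc5, with a median of 1.78.

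Between lineages under HA, the mitosis genes were not called different. Th9 HA cultures received HEL at 1 µg/ml and the others at 2 µg/ml, so lineage and antigen dose cannot be told apart in comparisons with Th9. Th9 minus Th1 called 0 genes in limma, with 2 at an unadjusted p under 0.05 (5.34% and 15.2% of all genes). All 39 differences were positive, at a median of 0.34, beside 0.01 over all genes. The genes were read from the same arrays and do not count as replicates. The share of all genes with a positive difference was not worked out. The largest was that of Kif23 (1.03 ± 0.27, adjusted p = 0.0513), which the replicate block called (adjusted p = 0.0159). Th17 minus Th1 called 0 genes with 0 at an unadjusted p under 0.05 (6.90% and 17.7% of all genes), at a median of 0.08. Th17 minus Th9 called 0 genes with 1 at an unadjusted p under 0.05 (4.77% and 15.4%), at a median of -0.23. The order Th9, Th17, Th1 under HA therefore holds no pair of neighbours with a called difference.

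Under PBAB the Th17 cultures stood lowest. Th9 minus Th1 called 0 genes in limma, with 2 at an unadjusted p under 0.05 (2.16% and 10.4% of all genes), at a median of 0.35. The block called 2, Ncapg and Ttk. Th17 minus Th1 called 3 genes lower (3.13% of all genes called lower), namely Mad2l1 (-1.21 ± 0.22), Cdca8 (-1.08 ± 0.21) and Cenpe (-0.97 ± 0.25), at a median of -0.81 over the 39. The block called 24, and leaving out Th17 PBAB 1 called 26, while leaving out Th17 PBAB 2 or Th1 PBAB 2 called 0 and leaving out Th1 PBAB 1 called 1. Th17 minus Th9 called 21 lower (3.74%), at a median of -1.15, and the block called 33. Here Ttk had the smallest p (-2.13 ± 0.29, adjusted p = 0.0019). Without Th17 PBAB 2 there were 2 calls, without Th9 PBAB 1 there were 3 and without Th9 PBAB 2 there were 7.

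Other genes of the mitotic machinery, which are not among the 39, moved the same way in the average, less uniformly. Of all tested genes, 17.3% were called lower and 13.2% higher in that average. Of 11 other mitotic entry genes 6 were called lower, among them Ccna2 (-1.34), the cyclin of S and G2 phase, and Wee1 (-0.66), the kinase that restrains CDK1. Of 31 other kinetochore and checkpoint genes 24 were called lower, among them Spc24 (-1.70) and Spc25 (-1.42), which complete the NDC80 complex. Of 19 other spindle and cytokinesis genes 15 were called lower, among them Fam83d (-1.06) and Arhgap11a (-0.83). Of 17 condensin and cohesin genes 8 were called lower, among them Ncapg2 (-1.34) and Stag1 (-0.97). None in these 4 lists was called higher. Of 16 subunits and regulators of the anaphase-promoting complex 5 were called lower and 1 higher, with Fbxo5 (-1.44), its inhibitor, and Anapc13 (-0.71) having the smallest p. The median over all 94 genes of these 5 lists was -0.59 with 58 called lower and 1 higher, beside -0.88 for the 39.

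Genes upstream of mitosis were read beside them, against the same shares of all tested genes. Of 18 genes of the DREAM, B-Myb and E2F families 10 were called lower and none higher, with the smallest p in the repressor E2f7 (-2.43, with 1 PBAB array below the filter) and the pocket protein Rbl1 (-1.12). E2f8, a repressor close to E2f7, differed by -2.15. Of 8 G1 cyclins and kinases 4 were called lower, among them Ccne2 (-1.0) and Ccne1 (-0.59), and 1 higher. Of 36 genes of DNA replication and nucleotide synthesis 33 were called lower and none higher, at a median of -1.21, with the smallest p in Pola1 (-1.94), a subunit of the priming polymerase, and Rrm1 (-1.68), a subunit of ribonucleotide reductase. Rrm2 (-2.41), its other subunit, had the largest difference of that list and Tk1 (-2.37), thymidine kinase, came next. The replication genes called lower numbered 21 in Th1, 20 in Th9 and 31 in Th17, beside 9.40%, 6.32% and 10.4% of all tested genes.

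The CDK inhibitors, which brake the cell cycle, went both ways. Cdkn1a (p21) was at 11.71 and 11.17 in Th1 HA, 10.35 and 10.03 in Th9 HA and 9.85 and 10.14 in Th17 HA. Under PBAB it was at 11.23 and 11.64 in Th1, 11.18 and 11.70 in Th9 and 11.40 and 12.12 in Th17, and in APC alone at 9.24, 9.81 and 9.66. The stimuli overlapped in Th1, and in Th9 and Th17 both PBAB arrays lay above both HA arrays. Its averaged difference was 1.01 ± 0.17 (adjusted p = 0.00119), with 0.00 in Th1, 1.26 in Th9 and 1.77 in Th17. Cdkn1b (p27) differed by 0.66 ± 0.22 (adjusted p = 0.0421). Cdkn2c (p18) was lower by 1.22 ± 0.14 on average, at -1.11, -1.31 and -1.25 in the 3 lineages. Among activated arrays, Cdkn2b (p15) was above the filter in Th1 HA only, at 6.1 and 6.5 against 4.33 and 4.75 in Th1 PBAB. It was called lower in Th1 (adjusted p = 0.00105), where its size has no exact value. Cdkn2d differed by 0.02 without a call, Cdkn1c was at 5.36 or below in every activated array, and Cdkn2a was below the filter.

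**Figure D5:**
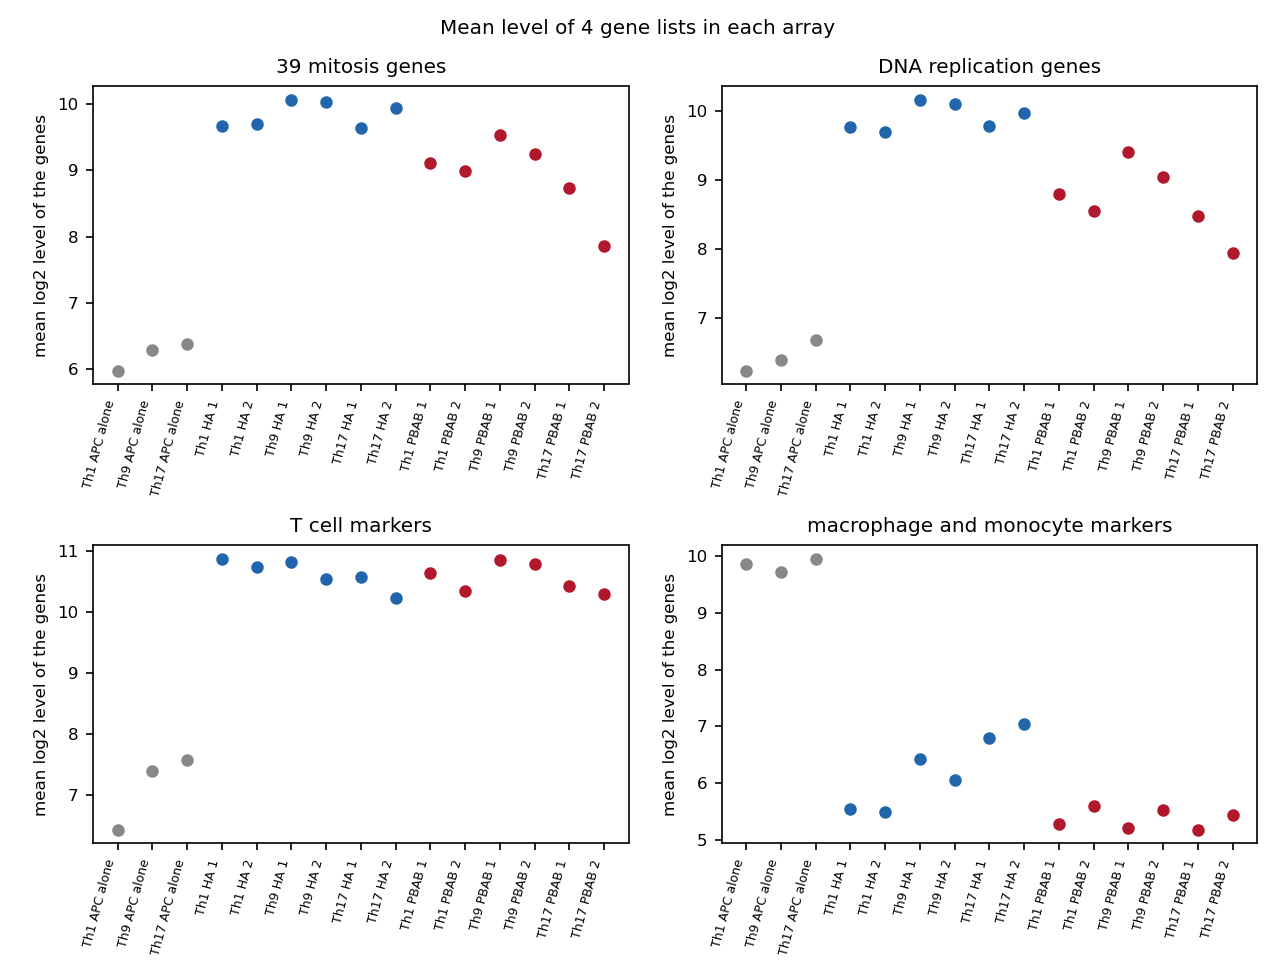
Mean log2 level (vertical axes, which differ between panels) of the 39 mitosis genes, 36 DNA replication genes, 13 T cell markers and 20 macrophage and monocyte markers in each of the 15 arrays, with grey for APC alone, blue for HA and red for PBAB. The mitosis and replication genes are lowest among activated arrays in the second Th17 PBAB array, at a mean of 7.86 and 7.95. The mean level of the T cell markers lies between 10.23 and 10.87 in HA and between 10.29 and 10.85 in PBAB.

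Markers of cell types were read in the same average, in which 17.3% of all tested genes were called lower and 13.2% higher. Of 20 macrophage and monocyte markers 10 were called lower in PBAB on average and 1 higher, and 12 to 17 were above the filter in HA arrays, against 8 to 11 in PBAB arrays. Their mean level was 6.24 in Th9 HA against 5.37 in Th9 PBAB, and 6.92 in Th17 HA against 5.32 in Th17 PBAB. It was 5.52 in Th1 HA and 5.44 in Th1 PBAB. Both CD8 T cell markers and 3 of 6 NK cell markers were called lower, and none of these 8 higher. Of 14 B cell markers 1 was called lower and 1 higher, of 7 dendritic cell markers 1 and 1, of 6 granulocyte markers 2 and 0, and of 4 erythroid markers 0 and 1. Of the 13 T cell markers 5 were called lower and 2 higher. The part of these markers and of the actin ratio in the differences between stimuli was not tested.

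With 36 of 39 genes called lower, a split of the 39 by promoter letters leaves little room for the share called to differ. It was 22 of 24 for genes with CCAAT and CHR letters in 1 promoter, 3 of 4 with CHR letters only, 1 of 1 with CCAAT only and 6 of 6 with neither. The 3 genes without a call, Cenpa, Anln and Ect2, all hold CHR letters. The median difference was -0.84 for the genes with both and -0.87 for those with neither. Among tested genes outside the 39, 178 of 818 with both (21.8%) and 16.2% of those with neither were called lower.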

How the data were processed

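Expression was measured on 15 Affymetrix arrays from 500 ng of total RNA each. The deposited table holds log2 values of 45101 probe sets, made with RMA by the authors, per the submitters' processing notes. No version of RMA is named there, and that the values are log2 was read from their range. They were analysed as deposited, so the authors' normalization enters every difference. Which arrays were normalized together, and whether APC alone was among them, is not known here. Symbols came from the platform annotation (34958 probe sets with 1 symbol), and a gene with several probe sets was read from the one of highest mean. Genes above the 40th percentile of the table (5.07) in at least 2 arrays were tested.

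With limma 3.58.1 in R 4.3.3, a mean was fitted for each of the 9 groups over 15 arrays and 15498 genes, with 6 residual and 4.38 prior degrees of freedom and Benjamini-Hochberg adjustment over all genes. The number of arrays, 2 per activated group, limits the precision. The code was tested on simulated data with independent noise in each array. Such data hold no deviation shared by arrays of 1 replicate number, so they do not show how the fit fares with it. The members and lists were chosen with earlier results of these data known. Arrays of 1 replicate number deviated together in all 15 pairs of groups (correlation 0.296 to 0.708), so the shared numbers in the labels were taken to mark pairs. The fit reported has no term for these pairs, so their shared deviation stays in its residual spread. Blocked fits are quoted where a call changed.

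Values per array are given, by rule, for the members with the largest and smallest averaged difference of each role and those whose probe sets disagree. Of the other lists, the 2 genes with the smallest p and all CDK inhibitors are named. Cdk1, Ect2, Kif23, E2f8, Rrm2, Tk1 and the values per array of Cdkn1a and Cdkn2b were added after their values were seen. Alternatives covered the probe set, the filter, the scaling, the prior variance, the arrays fitted and the block. Promoter sequences are from RefSeq (GRCm38.p6), with 4 genes (Aurkb, Foxm1, Kif20a and Tpx2) not matched.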

Additional observations from a re-analysis of the deposited data

Results flagged for a closer look

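The difference between stimuli for Ttk, the checkpoint kinase, was called different between Th17 and Th9 cultures. It was lower in Th17 than in Th9 cultures by the test of the interaction contrast, at -1.94 ± 0.42 (adjusted p = 0.0485 in limma), from -1.84 in Th17 and 0.10 in Th9. The F test of the interaction between stimulus and lineage did not call Ttk. A dimmer probe set of Ttk had an averaged difference of 0.18 ± 0.14, the other way. Th9 HA cultures also received less HEL than Th17 HA cultures, which cannot be told apart from lineage here. No call was made with the mean of all probe sets or with quantile normalization. The call was lost without any 1 of 10 activated arrays, and it was kept without Th17 HA 1 and without Th17 PBAB 1.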

How the results depend on the processing

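In no alternative did a member's difference between stimuli, averaged or within a lineage, reverse once called. The counts that follow are of members. Shares of all genes called were not worked out for the replicate block or for fits without single arrays. Averaged, 36 members were called in the fit reported, 21 over Th1 and Th9 only, and 29 to 37 without single arrays. Within lineages, quantile normalization again gave 5 calls in Th1, and the replicate block 16 in Th1 and 19 in Th9. Leaving out single arrays gave 2 to 16 calls in Th1, 1 to 17 in Th9 and 20 to 34 in Th17. For Th17 minus Th1 under PBAB, quantile normalization gave 6 calls, the replicate block 24 and single arrays left out 0 to 26. For Th17 minus Th9 under PBAB the block gave 33 and single arrays left out 2 to 28. For Th9 minus Th1 under HA, 1 member was called with the 12 activated arrays, the mean of all probe sets, a trended robust prior, quantile normalization or the replicate block, and 0 to 1 without single arrays. For Th9 minus Th1 under PBAB the block gave 2 and single arrays left out 0 to 1.

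For the interaction F test, the 12 activated arrays, centring, a filter at the 60th percentile and the trended prior gave 1 call each, the replicate block 7 and single arrays left out 0 to 13. For the difference of differences Th17 minus Th1, the 60th percentile filter, the trended prior and quantile normalization gave 1 each, the block 7 and single arrays left out 0 to 17. For Th17 minus Th9, the mean of all probe sets and quantile normalization gave 0, the block 4 and single arrays left out 0 to 5.

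Reversals concerned APC alone. With quantile normalization Cdc20 in PBAB minus APC alone became -0.43 and Kif11 in HA minus APC alone -1.13. With the mean of all probe sets Foxm1 in HA minus APC alone became 0.30 and Kif11 in PBAB minus APC alone 1.76, and with the probe set chosen over activated arrays, an alternative added after the data were seen, the latter was 2.91. The probe sets, given above, bear on the last 3, and the cause of the others was not tested. In HA minus APC alone, the median over all genes was 0.36 as deposited, 0.93 centred and 0.08 with quantile normalization.

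The median level of the members in Th1, Th9 and Th17 moved to 5.60, 5.98 and 6.11 in APC alone with centring. With quantile normalization it was 5.57, 6.15 and 6.38 in APC alone, 9.22, 9.60 and 9.35 in HA and 8.81 in Th1 PBAB. With the mean of all probe sets it was 5.53, 5.67 and 5.80 in APC alone, 7.98, 8.33 and 8.14 in HA and 7.60, 7.89 and 6.90 in PBAB. With 2 arrays per group, small differences within a lineage stay below what these arrays can show.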
